A study of Mus musculus with 6 samples.

Results

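Atrogin-1 and the MuRF proteins are muscle ubiquitin ligases, and their transcripts were followed through 4 genes that were chosen by symbol from the deposited gene table. They are Fbxo32 (ENSMUSG00000022358, atrogin-1), Trim63 (ENSMUSG00000028834, MuRF1), Trim54 (ENSMUSG00000062077, MuRF3) and Trim55 (ENSMUSG00000060913, MuRF2), 4 of 22187 rows. Each symbol matched 1 row, all are protein-coding, and all passed the filter on low values that left 12392 tested genes. Whole gastrocnemius, a calf muscle, was compared between 3 denervated and 3 control mice, all male C57BL/6J aged 12 weeks. The left sciatic nerve of denervated mice had been interrupted by removal of a short piece, and the muscle was taken 2 weeks later. Control mice are described as normal, with the left muscle taken and no sham operation named, so the operation and the loss of the nerve cannot be told apart. The labels give 3 mice per group and name no pooling.

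A ubiquitin ligase marks a protein for breakdown by the proteasome. Atrogin-1 is an F-box protein, the substrate-binding part of an SCF complex that also holds Skp1, Cul1 and Rbx1. The MuRF proteins belong to the tripartite motif (TRIM) family, carry a RING domain that recruits the ubiquitin-conjugating enzyme, sit at the M-band and Z-disc of the sarcomere or along microtubules, and can pair with each other. Fbxo32 and Trim63 are known as genes that rise in many forms of muscle wasting. FoxO factors and, after loss of the nerve, myogenin are known activators of both, and the glucocorticoid receptor acts with FoxO1 at the Trim63 promoter.

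The promoter table of RefSeq held 2 of the 4 members, Trim63 and Trim54, and these are shown because no window was available for the others. The 250 bases before each start are given on the gene's own strand (both +) on build GRCm38.p6, at chr4:134314870-134315119 for Trim63 and chr5:31116362-31116611 for Trim54. Capitals mark a FoxO motif (GTAAACA, on either strand), a CAGCTG E-box, which is the form of E-box that myogenic factors are known to prefer, and a TATA box (TATAAA, gene strand only).
Trim63: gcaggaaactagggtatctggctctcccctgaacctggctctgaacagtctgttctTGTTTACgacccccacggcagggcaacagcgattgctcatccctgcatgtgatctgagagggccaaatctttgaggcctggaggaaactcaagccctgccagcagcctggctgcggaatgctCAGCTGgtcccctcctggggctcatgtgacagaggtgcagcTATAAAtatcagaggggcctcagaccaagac
Trim54: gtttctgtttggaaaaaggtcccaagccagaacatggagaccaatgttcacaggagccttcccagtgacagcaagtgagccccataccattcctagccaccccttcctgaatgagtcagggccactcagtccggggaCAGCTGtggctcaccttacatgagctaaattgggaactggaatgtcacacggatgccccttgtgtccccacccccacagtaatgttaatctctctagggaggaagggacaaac

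The FoxO motif stood 194 to 188 bases before the Trim63 start, on the opposite strand, and these letters are not in the Trim54 window. Of 32851 promoter windows of the same length, 3.17% hold GTAAACA on either strand. A CAGCTG E-box stood 72 to 67 bases before the Trim63 start and 113 to 108 bases before the Trim54 start, and 13.0% of windows hold one. The general E-box CANNTG, which includes CAGCTG, matched 3 places in Trim63 and 2 in Trim54, and 66.2% of windows have at least 1. The hexamer AGAACA, a core of glucocorticoid receptor sites, lay directly beside the FoxO motif in Trim63 at 200 to 195 bases and at 222 to 217 bases in Trim54, against 16.1% of windows. A TATA box lay 31 to 26 bases before the Trim63 start, as in 7.59% of windows with a gene-strand match anywhere. A FoxO motif and a CAGCTG E-box stood together in 0.387% of windows, Trim63 among them. No other combination of motifs was counted, and whether these motifs share windows beyond what their single shares give was not tested. These matches are letters in a sequence and not measured binding sites.

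Levels below are expression signal as deposited, read as TPM (relative transcript abundance per length) multiplied by 1 factor per library. The sequencing depth is unknown. Across the whole table the totals were 976930 to 1068400 in denervated and 1064000 to 1128100 in control libraries, and protein-coding rows held 17.5% to 19.0% of the total in denervated and 30.8% to 32.7% in control libraries. Mitochondrial genes held 2.64% to 3.25% of the total in denervated and 11.3% to 12.6% in control libraries. The 20 most abundant rows held 75.1% to 77.7% in denervated and 70.9% to 73.1% in control libraries. Across genes, Spearman correlations lay between 0.957 and 0.976 for libraries of the same group and between 0.848 and 0.863 for libraries of different groups. The 8 muscle fibre markers, among them Acta1, Ckm and Ttn, were abundant in all 6 libraries, with a summed level of 9863 to 11689 in denervated and 28323 to 32077 in control muscle. A log2 fold change here is the denervated mean less the control mean of log2(level + 1), and limma tested it over all genes past the filter with Benjamini-Hochberg adjustment and a threshold of 0.05. By this test 22.9% of all tested genes were called higher and 24.3% lower in denervated muscle, 47.3% in all, and the median log2 fold change of all tested genes was -0.01.

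Atrogin-1 transcripts were at 72.5, 75.1 and 72.1 in denervated mice 1 to 3, against 34.8, 30.1 and 40.5 in control mice 1 to 3. The 3 denervated libraries were close to each other and lay above all controls. Fbxo32 thus averaged 73.2 ± 1.64 in denervated and 35.1 ± 5.19 in control muscle (SD, n = 3 each), with a log2 fold change of 1.05 (SE 0.114, 95% interval 0.78 to 1.31, limma adjusted p = 0.000217). In the order of log2 fold changes it was at place 730 of 12392 from the top, so that 5.88% of tested genes had a larger one.

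MuRF1 transcripts were at 73.8, 67.8 and 63.1 in denervated mice, against 41.3, 35.8 and 43.6 in controls. The groups did not overlap, and the lowest denervated library stood well above the highest control. Trim63 averaged 68.3 ± 5.37 in denervated and 40.2 ± 3.98 in control muscle (SD, n = 3 each), a log2 fold change of 0.75 (SE 0.105, 95% interval 0.51 to 0.99, limma adjusted p = 0.000789). It was at place 1241 of 12392 in the order of log2 fold changes.

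MuRF3, which binds microtubules and the Z-disc, went the other way as deposited. Trim54 was at 39.5, 37.3 and 38.3 in denervated mice, against 65.7, 55.6 and 63.6 in controls, with all denervated libraries below all controls. Its mean was 38.4 ± 1.09 in denervated and 61.6 ± 5.30 in control muscle (SD, n = 3 each). The log2 fold change was -0.67 (SE 0.091, 95% interval -0.88 to -0.45, limma adjusted p = 0.000697). The direction of Trim54 depends on the scaling of the libraries, as described further on.

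MuRF2, which is linked to the titin kinase together with Nbr1 and p62, was the least abundant member. Trim55 was at 5.69, 6.16 and 5.75 in denervated mice, against 8.30, 7.04 and 6.60 in controls. The denervated values all lay below the controls, but control 3 lay close to denervated 2. The log2 fold change of -0.27 (SE 0.102, 95% interval -0.51 to -0.04) was not called, with a limma adjusted p of 0.0596. Of the 4 members 2 were called higher and 1 lower, beside 22.9% and 24.3% of all tested genes. All 4 had groups without overlap, which was so for 57.5% of tested genes, and the exact permutation test of a single gene gave p = 0.1 for each, the smallest that 3 against 3 mice allow.

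**Figure D1:**
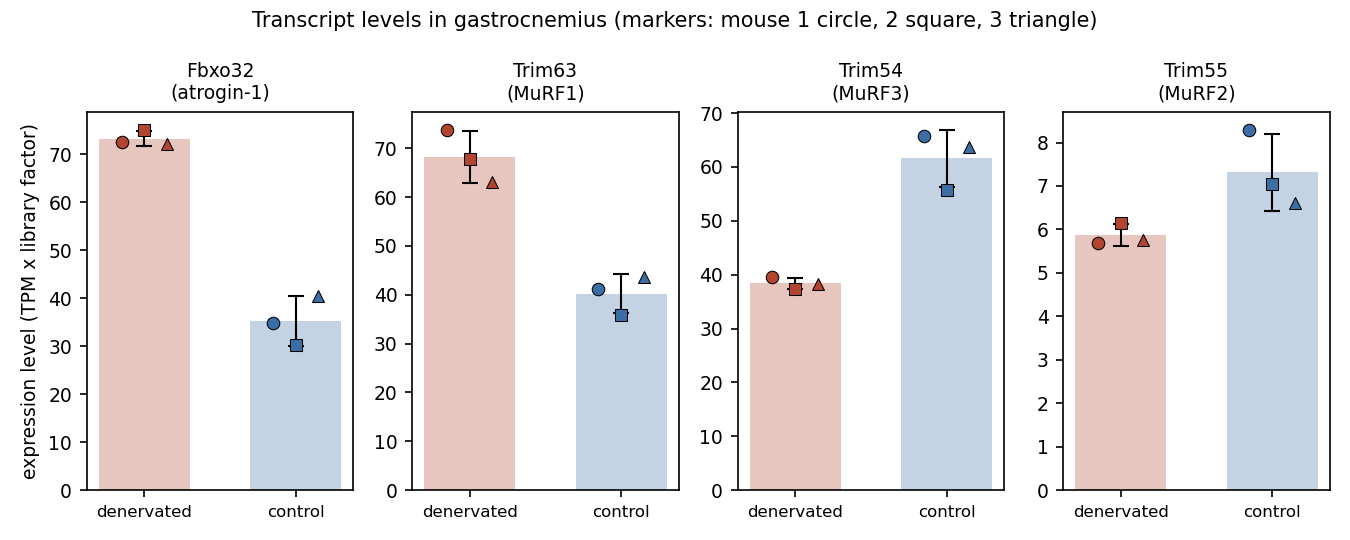
Level of each member (expression signal as deposited, read as TPM multiplied by a library factor, linear axis from 0, 1 scale per panel) in the denervated and control mice. Points are single mice, bars the mean and error bars the SD of 3 mice; Fbxo32 and Trim63 sit higher in all denervated mice and Trim54 lower, while the Trim55 groups lie close together.

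The order of the members differed between the groups. In denervated muscle Fbxo32 and Trim63 led, with ranges of 72.1 to 75.1 and 63.1 to 73.8 that overlap, so their order there is within the spread. Trim54 came next and Trim55 last. In control muscle Trim54 led, and Trim63 (35.8 to 43.6) and Fbxo32 (30.1 to 40.5) followed with overlapping ranges. Among 17461 protein-coding rows Fbxo32 ranked 288 to 324 in denervated libraries and 632 to 824 in controls. Trim63 ranked 315 to 374 in denervated libraries and 592 to 679 in controls. Trim54 ranked 582 to 617 in denervated libraries and 375 to 438 in controls, and Trim55 ranked 3803 to 4032 and 3005 to 3693 in denervated and control libraries. A rank does not depend on a factor per library, and the ranks of each member were without overlap between the groups, as were those of 59.2% of the tested protein-coding genes.

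The make-up of the MuRF transcripts within a library does not depend on the scaling, while their sum does. As deposited, the summed level of the 3 MuRF genes was 112 ± 5.99 in denervated and 109 ± 9.27 in control muscle (SD, n = 3 each), with overlapping groups (exact permutation p = 0.7, two-sided). With equal protein-coding totals, a scaling of the sum added after the data were seen, it was 145 to 162 in denervated and 73.5 to 83.6 in control muscle, without overlap (exact permutation p = 0.1). MuRF1 made up 62.0%, 60.9% and 58.9% of that sum in denervated mice, against 35.8%, 36.4% and 38.3% in controls. MuRF3 made up 33.2%, 33.5% and 35.8% in denervated mice, against 57.0%, 56.5% and 55.9% in controls. In every denervated library MuRF1 was thus the main MuRF transcript, and in every control library it was MuRF3. MuRF2 held 5.22% ± 0.395 in denervated and 6.71% ± 0.792 in control muscle. Each of these 3 shares was without overlap between groups (exact permutation p = 0.1, the smallest possible), as were the levels of 57.5% of tested genes. The 3 shares add up to the whole, so they are not independent of each other.

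**Figure D2:**
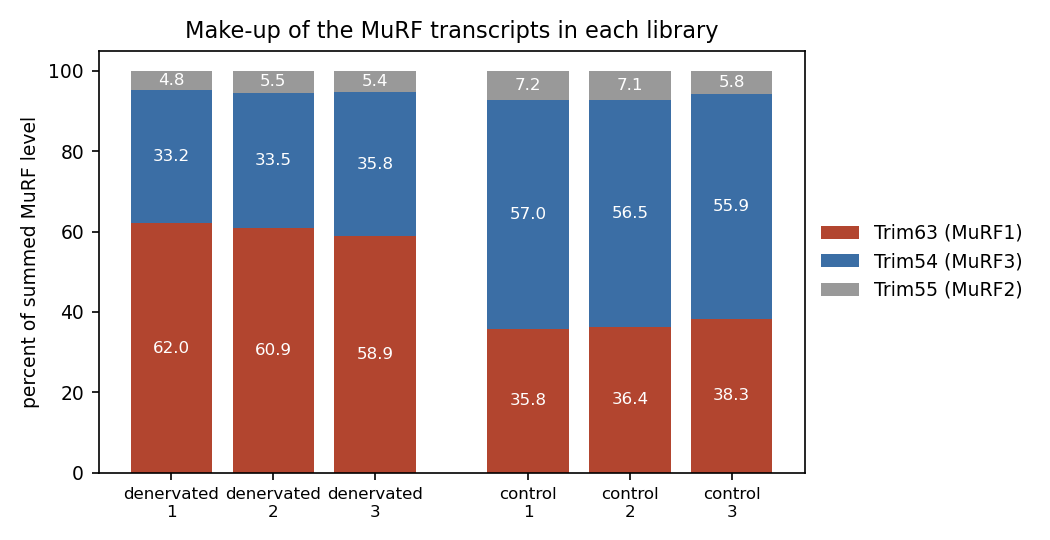
Percent of the summed MuRF level held by Trim63, Trim54 and Trim55 in each library, with the value printed in each segment. Trim63 holds 58.9% to 62.0% in the denervated libraries and 35.8% to 38.3% in the controls.

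A plain ratio of 2 members within a library is free of any factor of that library, and all 6 pairs were compared. The differences and tests use log2(level + 1) with the values as deposited. The added 1 leaves them partly dependent on the factor, most for pairs with Trim55, the least abundant member. The Trim63 to Trim54 ratio was 1.87, 1.82 and 1.65 in denervated mice, against 0.629, 0.644 and 0.685 in controls, a difference of 1.42 in the mean log2 ratio. The Fbxo32 to Trim54 ratio was 1.84, 2.01 and 1.88 in denervated mice, against 0.530, 0.542 and 0.637 in controls, a difference of 1.71. MuRF1 and atrogin-1 thus stood above MuRF3 in all denervated mice and below it in all controls. The Fbxo32 to Trim63 ratio was 0.982, 1.11 and 1.14 in denervated mice, against 0.843, 0.841 and 0.929 in controls, a difference of 0.30. The Trim54 to Trim55 ratio was 6.94, 6.06 and 6.67 in denervated mice, against 7.91, 7.91 and 9.64 in controls, a difference of -0.39. The sign of a difference depends on which member is the numerator.

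All 6 ratios were without overlap between groups, each with an exact permutation p of 0.1, also after adjustment over the 6 pairs, the smallest possible. Single tested genes were without overlap in 57.5%, and the share among ratios of other gene pairs was not counted. As a further test chosen after the data were seen, limma was fitted to all tested genes relative to 1 member of the pair, with the values as deposited only. Of the pairs, 5 passed whichever member was taken as the base, with the larger limma adjusted p at 4.22e-06 for Trim63 to Trim54 and 1.96e-06 for Fbxo32 to Trim54. The larger limma adjusted p was 0.0436 for Trim54 to Trim55. Their log2 fold changes were -0.67 and -0.27 as deposited, against 0.21 and 0.51 with equal protein-coding totals, where the pair was not tested. Fbxo32 to Trim63 did not pass, with adjusted p values of 0.0535 and 0.0743 and a 95% interval of the difference of 0.01 to 0.59 with Trim63 as the base. The log2 fold changes of atrogin-1 and MuRF1 were therefore not shown to differ from each other.

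**Figure D3:**
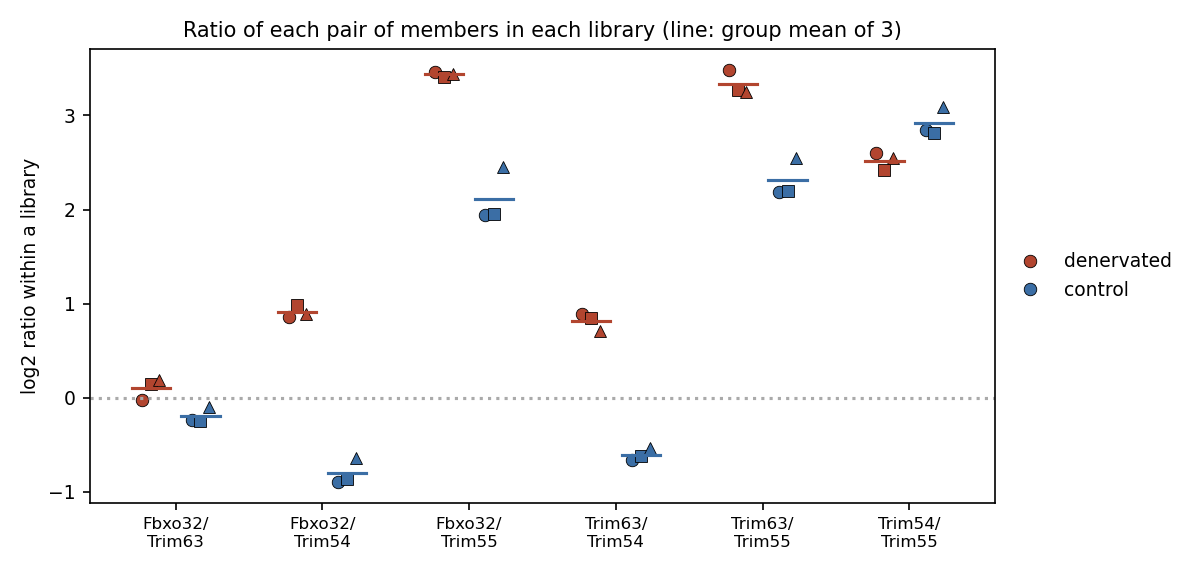
Log2 ratio of each pair of members within each library, with denervated mice left of control mice in each pair, points for single mice and a line for the mean of 3. The ratios of Fbxo32 and of Trim63 to Trim54 lie above 0 in all denervated mice and below 0 in all controls.

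How far each member rose or fell depends on what the libraries are scaled to. Fbxo32 and Trim63 were called higher under all 8 scalings tried, at 1.05 to 2.29 and 0.75 to 1.99 on the log2 scale. Trim54 was called lower under 5 of the 8 and higher under 1. With equal protein-coding totals, which moved the median of all genes to 0.60, Trim54 stood at 0.21 (limma adjusted p = 0.0508) and Trim55 at 0.51 (limma adjusted p = 0.0021). With that scaling 72.9% of all tested genes were called higher and 5.39% lower. Leaving the mitochondrial genes out of those totals put Trim54 at -0.20 and Trim55 at 0.14, neither called, with the median of all genes at 0.32 and with 48.5% of all tested genes called higher and 10.3% lower. Taken less the median of all tested genes, Fbxo32 stood at 1.06 to 1.43, Trim63 at 0.76 to 1.13, Trim54 at -0.66 to -0.28 and Trim55 at -0.26 to -0.03 over the 8 scalings. Trim54 therefore lay below the typical gene under each of them. Apart from quantile normalization, these scalings differ only by a factor per library. Such a factor moves a member and the median alike, except for the effect of the added 1. The 8 scalings are thus not separate evidence on a member's place relative to the median.

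**Figure D4:**
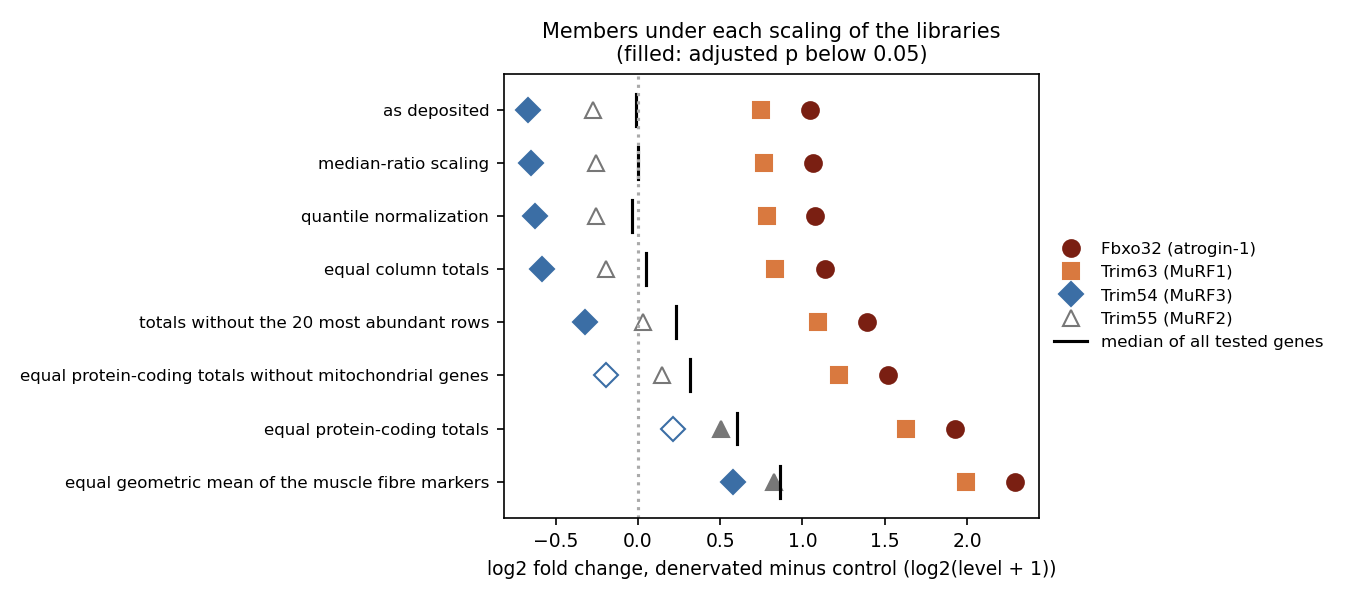
Log2 fold change (denervated minus control) of the 4 members with the values as deposited and under 7 other scalings of the libraries; filled symbols are past the threshold and the black bar is the median of all tested genes. Fbxo32 and Trim63 lie right of the median in each row, while Trim54 lies left of it and crosses 0 in the lowest 2 rows.

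In bulk muscle fewer cells of a type and less RNA per cell cannot be told apart. Of the 8 muscle fibre markers 7 were called lower and 1, Myh2, higher. Among those called lower, Myh1, Myh4, Mylpf and Tnnt3 are also on the list of fast fibre genes given below. The counts of these lists are therefore not separate, and a scaling to the markers rests in part on fast fibre genes that fell. As an added reading per fibre transcript, libraries were set to the same geometric mean of these 8 markers, which moved the median of all genes to 0.86. All 4 members were then called higher in denervated muscle, as were 85.1% of all tested genes (3.19% lower), at 2.29 for Fbxo32, 1.99 for Trim63, 0.58 for Trim54 and 0.83 for Trim55 (largest limma adjusted p = 0.000356). Trim54 thus lay below the median gene, while Trim55 was close to it (0.83 against 0.86). Of 15 fast fibre genes 14 were called lower and 0 higher as deposited, and 12 lower and 1 higher with equal protein-coding totals. Of 13 slow fibre genes 5 were called higher, 2 lower and 6 not as deposited, and 10 higher and 0 lower with equal protein-coding totals. The shares over all tested genes were 22.9% higher and 24.3% lower as deposited, and 72.9% and 5.39% with those totals. On the slow list Sln, which encodes the calcium pump inhibitor sarcolipin, averaged 240 ± 36.2 in denervated and 1.89 ± 1.29 in control muscle. Tnnt1, the slow troponin T, averaged 40.2 ± 6.47 in denervated and 1.02 ± 0.409 in control muscle. Casq2, the slow calsequestrin, and Mybpc1, the slow myosin-binding protein C, went the other way, at log2 fold changes of -0.71 and -0.65 that turned to 0.09 and 0.24 with equal protein-coding totals. On the fast list the myosin light chain kinase Mylk2 averaged 15.3 ± 1.98 in denervated and 175 ± 8.50 in control muscle (SD, n = 3 each). The part of these fibre genes in the members' levels was not tested.

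Markers of other cell types moved as well, with values as deposited, beside 22.9% of all tested genes called higher and 24.3% lower. Of 5 tested macrophage and monocyte markers 3 were higher and 0 lower, with a summed level over the list of 31.7 to 35.5 in denervated and 14.4 to 17.4 in control muscle. Smooth muscle and pericyte markers were lower in 4 of 4, at a sum of 32.9 to 38.9 in denervated and 102 to 109 in control muscle. Endothelial markers were lower in 4 of 4 (17.3 to 19.3 in denervated, 35.0 to 36.5 in control muscle) and fibro-adipogenic markers in 3 of 4 (95.7 to 113 in denervated, 149 to 171 in control muscle). With equal protein-coding totals 1 endothelial marker and no fibro-adipogenic one was called lower, beside 5.39% of all tested genes. Of the cardiac markers, a tissue that also expresses the members, Tnnt2 was called higher while Myh6 was at 0.175 to 0.662 in denervated and 0.569 to 1.07 in control muscle. Tnni3 was listed at 0.156 to 0.267 in denervated and 0 to 0.248 in control muscle. The satellite cell marker Pax7, below the filter and not tested, was at 0.371 to 0.556 in denervated and 0.312 to 0.415 in control muscle, while Cdh15 and Myf5 were called higher. Both tested adipocyte markers were called higher (1 of them without control 2, control 3, denervated 1 or denervated 3), at a summed level of 1.95 to 3.00 in denervated and 0.294 to 1.47 in control muscle. Of the tendon markers Scx was higher and Tnmd lower. Their part in the members' results was not tested.

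Within its family atrogin-1 stood out by level. Of 37 rows with an Fbxo symbol, Fbxo32 was the most abundant in all 3 denervated libraries, and in controls it was first in 1 and second in 2 behind the muscle F-box gene Fbxo40. Fbxo32 made up 35.9%, 36.2% and 35.1% of the summed Fbxo level in denervated mice, against 19.7%, 17.4% and 20.5% in controls. Fbxo40 averaged 33.5 in denervated and 38.6 in control muscle and was not called as deposited (limma adjusted p = 0.0737). With equal protein-coding totals Fbxo40 was called higher (0.67, limma adjusted p = 0.000167). Fbxo25, the closest relative of Fbxo32, was at 1.39, 1.64 and 1.49 in denervated mice, against 2.25, 1.79 and 1.84 in controls, and was not called either. It was called higher with equal protein-coding totals (0.33) and per fibre marker (0.56), and lower with quantile normalization (-0.28). Of 26 other tested Fbxo rows 3 were called higher and 5 lower as deposited, against 20 and 0 with equal protein-coding totals. Their median log2 fold change was close to 0 as deposited (-0.0005) and 0.66 with those totals. Among all tested genes 22.9% were called higher and 24.3% lower as deposited, against 72.9% and 5.39% with equal protein-coding totals. Fbxo30, known as MUSA1 and as a ligase of denervated muscle, rose to 3.90 ± 0.499 in denervated muscle, against 1.74 ± 0.196 in control muscle (SD, n = 3 each). Fbxo36 rose (log2 fold change 1.35), while Fbxo3 and Fbxo9 fell by 0.93 and 0.67. Fbxo9 turned to 0.12 with equal protein-coding totals, and both turned per fibre marker, to 0.20 for Fbxo3 and 0.44 for Fbxo9.

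Within the TRIM family the MuRF genes held a steady share. Of 57 TRIM rows, Trim63 and Trim54 were the leading pair in all 6 libraries, with Trim63 first in the denervated mice and Trim54 first in the controls. Trim55 ranked 9 to 12. The 3 MuRF genes together made up 38.1% ± 1.96 of the summed TRIM level in denervated and 39.0% ± 2.18 in control muscle (SD, n = 3 each), with overlapping groups. Of 30 other tested TRIM genes 6 were called higher, 4 lower and 20 not as deposited, against 23 higher and 0 lower with equal protein-coding totals. Their median log2 fold change was 0.02 as deposited, -0.01 with quantile normalization and 0.66 with those totals. Without control 1 or without denervated 1 the called lower genes were 2. The background over all tested genes was 22.9% higher and 24.3% lower as deposited, against 72.9% and 5.39% with equal protein-coding totals. Trim8, a RING ligase of cytokine signalling, rose to 12.6 ± 2.58 in denervated muscle, against 5.17 ± 0.523 in control muscle (SD, n = 3 each). Trim11 rose (log2 fold change 0.78), and Trim23 and Trim24 fell by 0.83 and 0.59. Trim24, a transcription cofactor, turned to 0.26 with equal protein-coding totals, and both turned per fibre marker, to 0.18 for Trim23 and 0.61 for Trim24.

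Among known regulators of atrogin-1 and MuRF1 transcription Myog and Hdac4 rose most. Myog, which encodes myogenin, was at 114, 97.9 and 114 in denervated mice, against 1.98, 2.51 and 2.96 in controls. Hdac4, a class IIa deacetylase known to act upstream of myogenin after denervation, was at 106, 95.7 and 112 in denervated mice, against 7.32, 8.24 and 7.93 in controls. A second row with the symbol Hdac4 had means of 94.6 in denervated and 6.32 in control muscle, and reads of the pair may be shared. Of 30 tested regulators 13 were called higher, 10 lower and 7 not as deposited, against 21 higher and 4 lower with equal protein-coding totals. Their median log2 fold change was 0.18 as deposited, over a list that holds activators and inhibitors. The shares of all tested genes were 22.9% higher and 24.3% lower as deposited, against 72.9% and 5.39% with equal protein-coding totals.

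The FoxO genes did not move as one. Foxo1 was at 3.09, 4.11 and 4.93 in denervated mice, against 1.58, 1.71 and 2.08 in controls, a log2 fold change of 0.84 (limma adjusted p = 0.00258). Foxo3 averaged 4.76 ± 0.714 in denervated and 4.22 ± 0.395 in control muscle and was not called (log2 fold change 0.14), but it was called higher with equal protein-coding totals (0.87). Foxo6 was not called at 0.32, although it passed without control 2 (limma adjusted p = 0.0268) and with equal protein-coding totals (0.90). Foxo4, the most abundant of them, was called lower at -0.36. That call was lost without control 2, control 3, denervated 1 or denervated 2 (limma adjusted p = 0.0862, 0.0877, 0.0711 and 0.0758), and with equal protein-coding totals Foxo4 was higher (0.48). FoxO activity is set largely by phosphorylation and location of the protein, which transcript levels do not measure. Mstn and Prkaa2, which encode myostatin and a catalytic subunit of AMP kinase, had the steepest falls on the list, at -2.28 and -1.93.

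**Figure D5:**
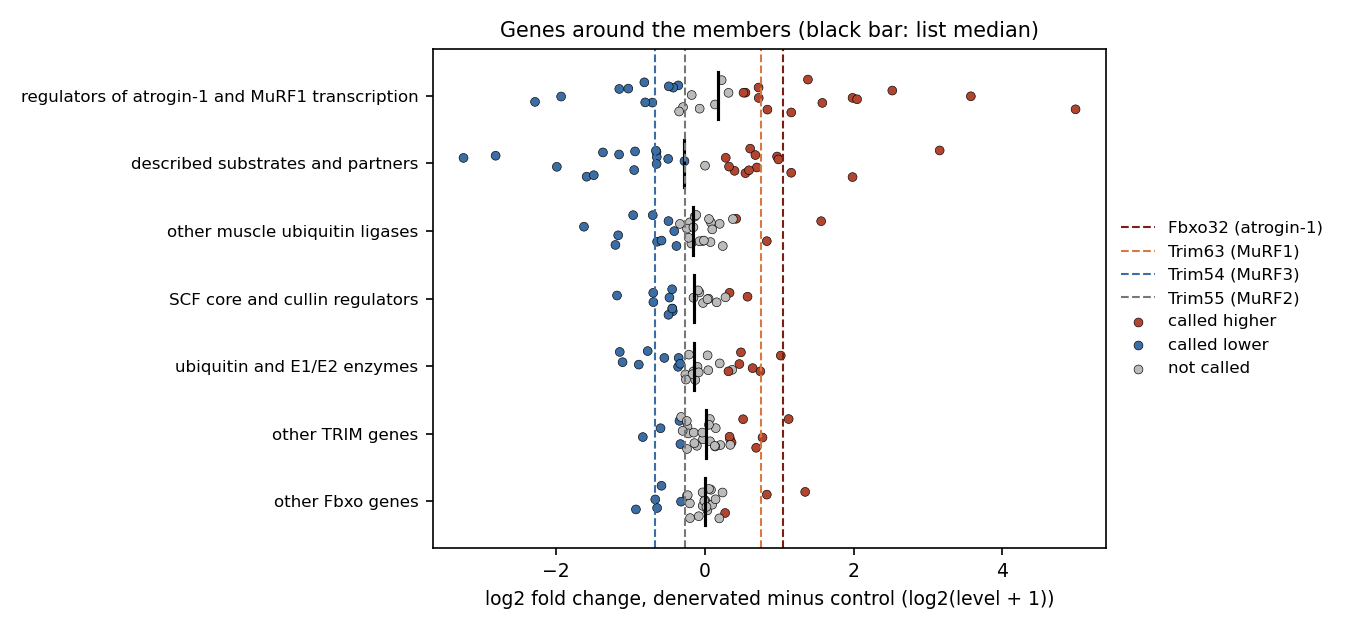
Log2 fold change (denervated minus control, values as deposited) of each tested gene in 7 lists around the members, coloured by call, with the list median as a black bar and the members as dashed lines. The other ligases and the SCF genes lie left of the Trim63 and Fbxo32 lines, except Mdm2 and Fbxo30 (1.56 and 0.83), and the regulators and substrates spread widely on both sides.

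Partners of atrogin-1 in the SCF complex were not called higher as deposited. Skp1a, the adaptor, averaged 51.3 in denervated and 54.0 in control muscle, and Cul1, the scaffold, 12.1 and 12.4 in denervated and control muscle, neither called. With equal protein-coding totals they were higher by 0.81 and 0.80 on the log2 scale, where Fbxo32 was higher by 1.92. Rbx1, the RING subunit, was at 14.6 ± 1.67 in denervated and 24.1 ± 1.10 in control muscle (SD, n = 3 each). Its log2 fold change of -0.69 was called lower (limma adjusted p = 0.00104) but turned to 0.16 with equal protein-coding totals. Of 19 tested SCF and cullin genes 2 were called higher (Cand1 and Cul4a), 9 lower and 8 not as deposited, against 14 higher and 1 lower with equal protein-coding totals. Without control 3 the called lower genes were 5. Cul3, the scaffold of another ligase class, fell most (log2 fold change -1.18, or 0.032 per fibre marker). The list median was -0.15 as deposited and turned positive without the 20 most abundant rows in the totals (0.18) and with equal protein-coding totals (0.68). All tested genes were called higher in 22.9% and lower in 24.3% as deposited, against 72.9% and 5.39% with equal protein-coding totals.

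Other ubiquitin ligases of muscle, which include 7 genes of the Fbxo and TRIM families, went both ways. Of 31 tested 3 were called higher, 10 lower and 18 not as deposited, against 23 higher and 2 lower with equal protein-coding totals. The deposited shares over all tested genes were 22.9% higher and 24.3% lower, and with equal protein-coding totals they were 72.9% and 5.39%. Without denervated 1 the called higher genes were 5. The largest rise, ahead of Fbxo30, was that of Mdm2, the ligase for p53, to 28.4 ± 3.56 in denervated muscle, against 8.89 ± 0.569 in control muscle (SD, n = 3 each). Wwp1, a HECT ligase, fell to 8.30 ± 0.319 in denervated muscle, against 27.7 ± 1.66 in control muscle (SD, n = 3 each), and Asb15, a muscle cullin adaptor, fell by 1.20 on the log2 scale. The list median was -0.15 as deposited and 0.59 with equal protein-coding totals.

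Transcripts of proteins described as substrates or partners of the members went both ways, with 13 of 29 called higher, 15 lower and 1 not as deposited, against 16 higher and 6 lower with equal protein-coding totals. For atrogin-1 these include Eif3f, a translation initiation subunit (log2 fold change 0.70), and Myod1, a myogenic factor, which rose to 49.5 ± 4.10 in denervated muscle, against 11.9 ± 2.38 in control muscle (SD, n = 3 each). For MuRF1 they include the fast myosin heavy chain Myh4, at 669, 555 and 691 in denervated mice against 4839, 3909 and 4707 in controls, and myosin-binding protein C, with Mybpc2 falling by 3.24. Tnni1, the slow troponin I, rose by 3.16. Nbr1 and Sqstm1, which encodes p62, the titin kinase partners of MuRF2, were higher at 0.97 and 0.60. The list median was -0.27 as deposited and turned to 0.07 without the 20 most abundant rows in the totals and to 0.57 with equal protein-coding totals. Over all tested genes 22.9% were called higher and 24.3% lower as deposited, against 72.9% and 5.39% with equal protein-coding totals. The list shares genes with the fibre lists above, so its counts are not separate from theirs. Among the genes called lower, Myh1, Myh4, Mybpc2, Myl1, Mylpf and Tnni2 are also fast fibre genes. Acta1, Ttn and Ckm, also lower, are muscle fibre markers. Of the genes called higher, Myh2 is a muscle fibre marker, and Myh7 and Tnni1 are on the slow list. Breakdown by a ligase acts on the protein, and no protein was measured.

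Genes with the profile most like each member over the 6 libraries were sought among protein-coding rows with a mean level of 10 or more, by the root mean square difference in log2(level + 1) after subtracting the control mean. For Fbxo32 the nearest were Lyz2 (0.079), Itm2b (0.092) and Syne1 (0.107). For Trim63 they were Eef2 (0.044), Rpl27-ps3 (0.055) and Rps9 (0.059), where reads of ribosomal protein genes and their pseudogenes may be shared. For Trim54 they were Golga4, Col3a1 and Dcaf6 (0.051 to 0.060), and for Trim55 Serpinf1, Lrrc2 and Spnb1 (0.048 to 0.050). With 6 libraries in 2 groups such closeness is common: 103, 203, 348 and 431 genes lay within 0.2 of Fbxo32, Trim63, Trim54 and Trim55. Fbxo32 and Trim63 differed by 0.225, which made Trim63 the gene at place 139 of the 2583 compared with Fbxo32.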

How the data were processed

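Illumina mRNA-seq libraries from total RNA of 6 mice were sequenced as paired-end reads, per the labels' protocols. The submitters' processing notes name Bowtie2 2.2.9, RSEM 1.3.0, edgeR 3.12.1 and build NCBIM37, without role or order. Neither strandedness nor the annotation is given in the sources used here. The authors deposited 1 signal value per gene and library, with totals of 976930 to 1128100, which was read as TPM times a factor per library; it keeps no depth, so no counting interval was computed.

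Genes at 0.5 or more in at least 3 libraries were fitted on log2(signal + 1) with limma 3.58.1 (R 4.3.3, trend, 4 residual degrees of freedom). Ratios and shares were compared with two-sided exact permutation tests (SciPy 1.17.1). The limma fit was also run on simulated data with known changes in far fewer genes than were called here. Those data held no difference in scaling between libraries, so they do not bear on the choice of scaling. Promoter windows are RefSeq, GRCm38.p6. As strandedness is not given, antisense reads cannot be separated here. Gm15943, antisense to Fbxo32 in GENCODE M21, was at 0.196 to 0.427 in denervated and 0.851 to 2.49 in control muscle. Gm15469, antisense to Trim54, and BC002189, in an intron of Trim55 on the same strand, have no values here.

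The members and lists were chosen with earlier results of these data known. Named were the members, the 2 largest called rises and falls per list (or the 2 most abundant genes), Fbxo25, Myog, the FoxO genes and the 3 nearest profiles per member. Genes named besides these, such as Fbxo40, Skp1a, Cul1, Eif3f, Nbr1 and Sqstm1, were chosen after their values were seen. Alternatives were other scalings, filters, pseudocounts and variance models, a replicate block, and leaving out each library.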

Additional observations from a re-analysis of the deposited data

How the results depend on the processing

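Fbxo32 and Trim63 were called higher under all 19 alternatives. Trim54 was called under 17, of which 1 was in the other direction, and Trim55 was called higher under 2. With totals without the 20 most abundant rows, 4966 genes were higher and 1614 lower, and Trim55 stood at 0.032. Setting protein-coding totals equal gave 9038 higher and 668 lower genes, Trim54 stood at 0.21 and Trim55 at 0.51. Without mitochondrial genes in those totals, 6014 were higher and 1271 lower, Trim54 stood at -0.20, no longer called (limma adjusted p = 0.0741), and Trim55 at 0.14. Per muscle fibre marker, a scaling chosen after the data were seen, 10547 were higher and 395 lower, Trim54 stood at 0.58 and Trim55 at 0.83. These signs move with the median of all genes, which the scaling sets. The limma test of ratios, also chosen later, passed where the exact test cannot, with differences of 1.71 (Fbxo32 to Trim54), 1.32 (Fbxo32 to Trim55), 1.42 (Trim63 to Trim54), 1.02 (Trim63 to Trim55) and -0.39 (Trim54 to Trim55).

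Leaving out 1 library in turn gave 0.95 to 1.15 for Fbxo32, 0.67 to 0.81 for Trim63, -0.74 to -0.62 for Trim54 and -0.33 to -0.19 for Trim55, with no change of call for any of them. Same-numbered libraries of the groups had correlations of their deviations of -0.00681, -0.099 and 0.0194 across genes, so the numbers were not taken to pair the mice, and no denervated library correlated best with the control of its own number. A replicate block gave 2636 higher and 2772 lower genes, against 2840 and 3017 without it, and changed no call of a member.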

Other observations

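Ubiquitin and its activating and conjugating enzymes, which supply every ligase, moved in both directions. Of 26 tested genes 6 were called higher, 8 lower and 12 not as deposited, beside 22.9% and 24.3% of all tested genes. Without control 1 the called higher genes were 3, and without control 3 or denervated 3 the called lower genes were 5. Ube2d1, of the UBE2D enzymes that RING ligases are often tested with, fell to 15.2 ± 1.08 in denervated muscle, against 34.7 ± 1.44 in control muscle (SD, n = 3 each). Ube2r2, a partner of SCF ligases, fell by 1.10 on the log2 scale, and per fibre marker Ube2d1 and Ube2r2 stood at 0.073 and 0.10, neither called. Ube2g2, an enzyme of breakdown at the endoplasmic reticulum, rose to 31.9 ± 1.14 in denervated muscle, against 15.2 ± 1.36 in control muscle (SD, n = 3 each). Rps27a, a ribosomal protein gene that also encodes ubiquitin, was called higher at 0.75, but only without denervated 2 did the call hold when a library was left out. Setting protein-coding totals equal gave 22 higher and 1 lower, beside 72.9% and 5.39% of all tested genes. The list median was then 0.56, against -0.14 as deposited.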
